A study of Homo sapiens with 2 samples.

Results

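The enzymes that oxidise, hydrolyse and conjugate foreign chemicals and steroids were compared between MHCC97H and MHCC97L, which are established human hepatocellular carcinoma cell lines. Members were defined by a rule on gene names, as protein-coding genes of the cytochrome P450 (CYP), epoxide hydrolase (EPHX), UDP-glucuronosyltransferase (UGT1A and UGT2), cytosolic glutathione S-transferase (GST), microsomal glutathione S-transferase (MGST) and cytosolic sulfotransferase (SULT) families, leaving out the sterol synthesis gene CYP51A1. This rule found 109 of the 19233 protein-coding genes in the table, 58 of phase I (54 CYP and 4 EPHX) and 51 of phase II (19 UGT, 16 GST, 3 MGST and 13 SULT). Both lines carry the genotype label WT and received no treatment in the labels. They were grown in DMEM with fetal bovine serum, and the labels give MHCC97H a high and MHCC97L a low potential for spontaneous metastasis. Both are known as clones of the same parental line, and each was represented by 1 poly(A)-selected RNA library, so no difference has a replicate check and no p-value is given. Every comparison is between these libraries and does not show a difference between metastatic potentials.

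In liver, drugs, pollutants, bile acids and steroids are cleared in steps. Phase I enzymes introduce or expose a reactive group: CYPs insert oxygen with electrons from a reductase, and epoxide hydrolases open the epoxides that some CYPs make. Phase II enzymes then attach glucuronic acid, glutathione or sulfate, which makes most products water-soluble and easier to excrete. Some CYPs have narrow physiological roles instead, in steroid hormone, bile acid, vitamin D or retinoic acid metabolism. Normal hepatocytes hold much of the body's drug-metabolising CYP, and many of these genes respond to nuclear receptors or to the aryl hydrocarbon receptor.

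The MHCC97H library held 28967153 counted reads and the MHCC97L library 24964246. Members took 0.384% of the reads in MHCC97H and 0.426% in MHCC97L as deposited, or 0.224% and 0.280% with the UGT1A genes, whose counts share reads, entered once. Levels are CPM, counts scaled to a common library size, after adjustment by the trimmed mean of M-values (TMM), where 1 CPM equals 30.3 reads in MHCC97H and 23.8 in MHCC97L. Where no read was counted, 3 reads were taken as the limit, which is 0.104 CPM of all reads for MHCC97H and 0.120 CPM for MHCC97L. All intervals and limits below reflect counting error alone: reads lack molecular identifiers, so they need not be independent, and the spread between cultures is unknown. The hepatocyte identity in the labels was checked on 10 marker genes, of which 8 reached 1 CPM in at least 1 library. Their summed level was 6068 CPM in MHCC97H and 8535 CPM in MHCC97L, but SERPINA1 alone gave 5881 and 8305 CPM of it, while albumin (ALB) had 57 and 131 reads and APOA1 4 and 4. HNF4A stood at 81.9 against 95.3 CPM, GPC3 at 52.8 against 51.7 CPM and TTR at 45.5 against 69.4 CPM, and none of these was called. APOB, FGB and AFP were under 5 CPM in both libraries. Of those 8 markers 2 (ALB and TF) were lower in MHCC97H and 0 higher. TF, with 10 and 24 reads, reached 1 CPM only in MHCC97L. The part of hepatocyte identity in the enzyme results was not tested. Endothelial markers summed to 0.693 and 0.671 CPM over 6 genes, of which 1 was at 0 in both libraries. Leukocyte markers summed to 2744 and 2419 CPM over 6 genes, of which lysozyme (LYZ) gave 2731 and 2409 CPM. CD68 had 233 and 148 reads, CD14 146 and 83, and PTPRC 1 and 0, and CD3E had none. Fibroblast and stellate markers summed to 30.0 and 40.8 CPM over 7 genes, with 2 lower, and the 6 cholangiocyte markers to 1119 and 1070 CPM, with CFTR higher and KRT7 lower. These marker calls follow the rule given below, by which 7.74% of all genes were higher and 4.37% lower. After removal of the trend with GC content and length described below, CFTR (log2 ratio 0.68) and KRT7 (-0.74) were not called. After that step 3 hepatocyte markers and 1 fibroblast and stellate marker were lower.

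Expression was uneven across the families. Of the 109 members, 25 had 0 reads in both libraries and another 25 had 1 to 9 reads in all. A further 19 had at least 10 but under 100 reads, 17 had at least 100 but under 1000, and 23 had 1000 or more. The most abundant class was mainly phase II, with 19 of its 23 genes, whereas 4 were phase I. With UGT1A entered once it was 11 of 15 genes. A level of 1 CPM in at least 1 library, the filter used for ratios, was reached by 46 members, 23 of phase I and 23 of phase II. They comprised 20 of 54 CYP, 3 of 4 EPHX, 9 of 9 UGT1A, 0 of 10 UGT2, 9 of 16 GST, 3 of 3 MGST and 2 of 13 SULT genes. In bulk RNA, fewer cells making a transcript and less transcript per cell cannot be told apart.

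**Figure D1:**
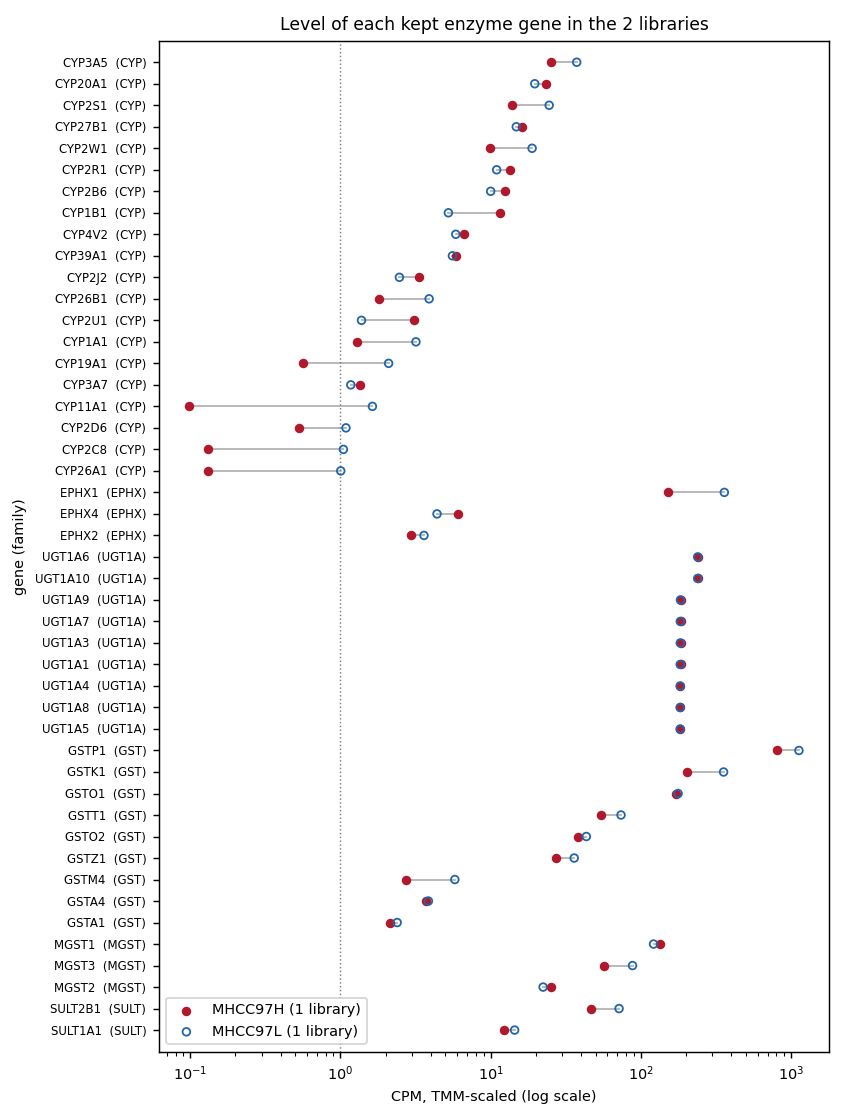
Level of each of the 46 enzyme genes that reached 1 CPM, as TMM-scaled CPM on a log axis, with 1 point per library (filled, MHCC97H; open, MHCC97L) and the filter at 1 CPM as a dotted line. CYP11A1, CYP2C8 and CYP26A1 lie at or below 0.132 CPM in MHCC97H and between 1.01 and 1.64 CPM in MHCC97L, while the UGT1A points coincide.

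A member was called higher or lower when its log2 ratio of MHCC97H over MHCC97L was at least 1 in size, a 2-fold difference, and its 95% counting interval excluded equal expression. By this rule 2 members were higher in MHCC97H (CYP1B1 and CYP2U1), 9 were lower (CYP11A1, CYP2C8, CYP26A1, CYP19A1, CYP1A1, CYP26B1, CYP2D6, EPHX1 and GSTM4) and 35 were not called. Of these 35, 18 had an interval that included equal expression, and the rest had an interval that excluded it but a difference under 2-fold. Among all 14548 genes that passed the filter, 7.74% were higher and 4.37% lower. The member shares were 4.35% higher and 19.6% lower. Of the 9 lower members, CYP11A1, CYP2C8, CYP26A1, CYP19A1 and CYP2D6 passed the filter only through MHCC97L, so a low value in MHCC97H was built into their entry and the count of 9 is not read as a shift of the family. Among genes under 5 CPM in both libraries, 10.6% were higher and 13.2% lower, and 13 members fell in that range, with 1 higher and 7 lower. The split of 2 higher and 9 lower became 2 and 5 with total counts and 0 and 11 with upper-quartile factors, which moved the median of all genes by 0.14 and -0.20. The balance of all genes turned as well, to 11.4% higher and 3.23% lower with total counts and 4.35% and 7.22% with upper-quartile factors. At a 1.5-fold threshold, which 20.7% of all genes met as higher and 12.7% as lower, the members gave 2 higher and 14 lower.

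The log2 ratio also followed the base composition of the transcripts, with a Spearman correlation with GC content of -0.65 across all genes, which are not independent replicates. With a smooth trend with GC content and length removed, 2.79% of all genes were higher and 2.76% lower, and the members gave 0 higher and 5 lower of 45 with a value. CYP11A1, CYP2C8, CYP26A1, CYP19A1 and CYP1A1 kept their call after this step, and CYP1B1, CYP2U1, CYP26B1, CYP2D6, EPHX1 and GSTM4 did not. Of those that kept it, all but CYP1A1 had passed the filter only through MHCC97L, so this count is not read as a shift of the family either.

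**Figure D2:**
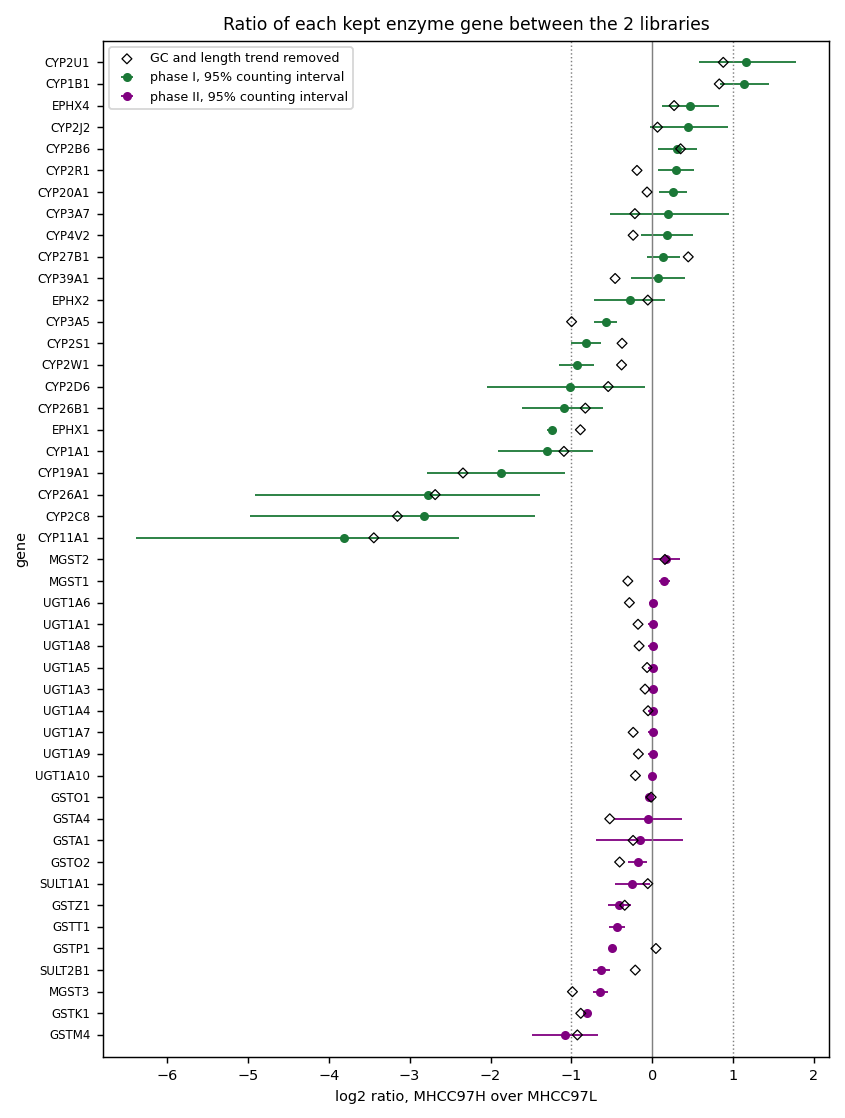
Log2 ratio of MHCC97H over MHCC97L for the 46 members that reached 1 CPM, with 95% counting intervals (filled points; green, phase I; purple, phase II) and the value after removal of the trend with GC content and length (open diamonds). Dotted lines mark a 2-fold difference; phase I genes run from -3.82 to 1.15 and phase II genes from -1.07 to 0.18.

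The CYP1 genes, which the aryl hydrocarbon receptor induces and which oxidise polycyclic aromatic hydrocarbons, were called in opposite directions. CYP1B1, which also hydroxylates oestradiol, had 350 reads in MHCC97H and 125 in MHCC97L, or 11.5 against 5.24 CPM. It was 2.20-fold higher in MHCC97H (95% counting interval 1.79 to 2.72). CYP1A1 had 39 and 76 reads, or 1.29 against 3.19 CPM, and was 2.48-fold lower in MHCC97H (1.66 to 3.74). CYP1B1 reads therefore outnumbered those of CYP1A1 8.97 times in MHCC97H and 1.64 times in MHCC97L. The third gene, CYP1A2, an abundant hepatocyte CYP, had 0 reads in both libraries. The CYP1B1 call rests on the scaling, since its log2 ratio of 1.14 was 0.94 with upper-quartile factors and 0.83 with the composition trend removed. Its exons overlap the antisense gene CYP1B1-AS1 over 11.3% of their bases, and the strand setting of the counting is not given, so reads of either gene cannot be told apart.

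CYP2 and CYP3 hold most of the CYPs that clear drugs. CYP2C8, an oxidase of paclitaxel and arachidonic acid, passed the filter only through MHCC97L and had the lowest log2 ratio (-2.83) of the CYP2 and CYP3 genes that reached 1 CPM. It had 4 reads in MHCC97H and 25 in MHCC97L, or 0.132 against 1.05 CPM, a 7.95-fold lower level in MHCC97H (2.74 to 31.4). CYP2D6, which oxidises many basic drugs, had 16 and 26 reads, or 0.528 against 1.09 CPM. Its 2.07-fold lower level had an interval from 1.07 to 4.12, and the call was lost with total counts (log2 ratio -0.89), with the trend removed (-0.54), with a prior count of 2 and when a coefficient of variation of 0.2 was assumed for each library. CYP2U1, a fatty acid hydroxylase, had 94 and 33 reads, or 3.10 against 1.38 CPM, and was 2.24-fold higher in MHCC97H (1.49 to 3.44). With upper-quartile factors its log2 ratio of 1.15 became 0.96, and 6.17% of its exon bases overlap an antisense gene. These calls rest on few reads, and no CYP2 gene above 5 CPM was called.

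Among the better expressed CYP2 genes, CYP2S1 had 423 and 586 reads and CYP2W1, a form known from fetal gut and colorectal tumours, 300 and 451. Their log2 ratios of -0.82 and -0.93 were under the threshold with TMM and past it with upper-quartile factors, at -1.01 and -1.13, and were -0.37 and -0.38 with the trend removed. CYP2B6, which oxidises bupropion and cyclophosphamide, stood at 12.4 against 10.0 CPM (log2 ratio 0.31, interval 0.07 to 0.55). The arachidonic acid epoxygenase gene CYP2J2 had 102 and 59 reads (0.44, interval -0.03 to 0.93). CYP2R1, which carries out the liver step of vitamin D activation, had 408 and 262 reads (0.29, interval 0.07 to 0.52). Neither CYP2B6, CYP2J2 nor CYP2R1 met the 2-fold threshold. Of the rest, CYP2E1 had 4 and 6 reads, CYP2A7 3 and 2, CYP2C18 1 and 1, and CYP2F1 0 and 1. CYP2A6, CYP2A13 and CYP2C19 had 0 in both libraries.

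CYP3A5 had the most reads of any CYP, 762 in MHCC97H and 894 in MHCC97L, or 25.1 against 37.5 CPM. Its log2 ratio of -0.58 (interval -0.72 to -0.44) was under the threshold, and with the trend removed it was -0.997, without reaching a call. The main drug-oxidising CYP of adult liver, CYP3A4, had 0 reads in MHCC97H and 11 in MHCC97L. Its 0.461 CPM in MHCC97L was below the filter, so no call was made. CYP3A7, the fetal liver form, had 41 and 28 reads (log2 ratio 0.20, interval -0.52 to 0.95), and its annotation overlaps a read-through gene over 39.5% of its exon bases. CYP3A43 had 0 and 1 reads. Reads of CYP3A5 thus outnumbered those of CYP3A7 18.6 times in MHCC97H and 31.9 times in MHCC97L.

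The promoter sequences of CYP1A1 and CYP2C8, 2 of the CYPs called lower in MHCC97H, are shown as examples that hold different elements. Any part of these elements in the calls was not tested. Each run is the 250 bases before the RefSeq start on GRCh38.p14, written 5′ to 3′ on the gene's strand, at chr15:74725529-74725778 (minus strand) for CYP1A1 and chr10:95069498-95069747 (minus strand) for CYP2C8. Capitals mark matches on either strand to any of 6 motifs. TGACNNNGC is the core of the antioxidant response element. The core of the element bound by the aryl hydrocarbon receptor is GCGTG. A part of the site of the liver factor HNF1 is spelled GTTAAT. CAAAGTCCA is a site of the liver factor HNF4. The box named after its letters is CCAAT. The TATA box was searched as TATAAA.
CYP1A1: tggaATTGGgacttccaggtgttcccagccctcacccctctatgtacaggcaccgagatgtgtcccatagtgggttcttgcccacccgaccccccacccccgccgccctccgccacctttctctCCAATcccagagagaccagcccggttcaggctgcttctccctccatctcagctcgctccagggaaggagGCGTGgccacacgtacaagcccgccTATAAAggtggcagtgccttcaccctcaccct
CYP2C8: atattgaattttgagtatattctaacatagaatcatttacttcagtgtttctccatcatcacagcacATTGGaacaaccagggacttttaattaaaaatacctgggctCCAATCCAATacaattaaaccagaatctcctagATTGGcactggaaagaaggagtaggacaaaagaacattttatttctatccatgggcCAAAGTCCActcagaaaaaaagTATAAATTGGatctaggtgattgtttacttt
The CYP1A1 run holds a GCGTG starting 57 bases before the start, a TATA box at 32 bases and CCAAT boxes at 126 and 246 bases. The CYP2C8 run holds a CAAAGTCCA at 53 bases, a TATA box at 31 bases and 5 CCAAT boxes, of which the one at 26 bases shares 1 base with the TATA box. CYP1B1 had no entry in the promoter table.

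Steroid-forming CYPs were few in reads, and 2 of the 6 were called, both lower in MHCC97H and both past the filter only through MHCC97L. Over all genes, 4.37% were lower. CYP11A1, which cleaves the cholesterol side chain to give pregnenolone, had 3 reads in MHCC97H and 39 in MHCC97L, or 0.0989 against 1.64 CPM. That is a ratio of 16.5 in favour of MHCC97L (5.25 to 83.6), and the log2 ratio of -3.82 was the lowest of the members that reached 1 CPM. CYP19A1, the aromatase that turns androgens into oestrogens, had 17 and 50 reads and was 3.74-fold lower (2.12 to 6.92). CYP11B1, CYP11B2 and CYP17A1 had 0 reads in both libraries and CYP21A2 had 0 and 1. The 6 genes summed to 20 and 90 reads, a ratio of 0.175 (0.102 to 0.286). Both calls held with the trend removed, at -3.44 and -2.34 on the log2 scale. An antisense gene covers 21.2% of the CYP11A1 exon bases, so a part of its few reads may belong elsewhere.

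Of the 3 CYP26 genes, whose enzymes degrade retinoic acid, 2 were called lower, where 4.37% of all genes were. CYP26A1, past the filter only through MHCC97L, had 4 reads in MHCC97H and 24 in MHCC97L, or 0.132 against 1.01 CPM, 7.63-fold lower (2.62 to 30.2). CYP26B1 had 55 and 93 reads, or 1.81 against 3.90 CPM, 2.15-fold lower (1.52 to 3.06). CYP26C1 had 0 in both. With total counts CYP26A1 did not reach the filter and CYP26B1 lost its call, and with the trend removed CYP26A1 stood at -2.68 and CYP26B1 at -0.83. A processed transcript overlaps 25.2% of the CYP26A1 exon bases.

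Bile acid and vitamin D CYPs showed no call. CYP7A1, which starts the classical route of bile acid synthesis, had 0 and 1 reads, CYP7B1 and CYP8B1 had 0 in both, and CYP46A1, a cholesterol hydroxylase of brain, had 0 and 5. CYP27A1, a mitochondrial sterol hydroxylase, had 7 and 21 reads, below the filter. CYP39A1, an oxysterol hydroxylase, had 178 and 133 reads (log2 ratio 0.07, interval -0.26 to 0.41). These 6 genes summed to 185 and 160 reads, a ratio of 0.909 (0.732 to 1.13). CYP27B1, which makes active vitamin D in kidney, had 495 and 354 reads (log2 ratio 0.14, interval -0.06 to 0.34), and CYP24A1, which degrades it, had 13 and 8. CYP27C1 had 1 and 0.

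The CYP4 genes, mostly fatty acid hydroxylases, summed to 244 and 164 reads, a ratio of 1.17 (0.956 to 1.44). CYP4V2 gave 202 and 140 of these, at 6.66 against 5.87 CPM. CYP4X1 had 17 and 12 reads, CYP4B1 10 and 1, CYP4F12 6 and 7, CYP4F11 2 and 4, CYP4F2 4 and 0, CYP4F3 2 and 0, and CYP4F22 1 and 0. CYP4A11, CYP4A22, CYP4F8 and CYP4Z1 had 0 in both. CYP20A1, a CYP with no settled substrate, had 714 and 470 reads (log2 ratio 0.26, interval 0.09 to 0.43). Per kilobase of exon it was the highest CYP in MHCC97H, at 7.65 CPM per kb, and in MHCC97L CYP2S1 was, at 8.55 CPM per kb. CYP39A1, CYP27B1 and CYP4V2, and the counts of the weakly expressed CYP genes, were given after their values were seen.

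Over all 54 CYP genes the summed level was 153.5 CPM in MHCC97H and 175.6 CPM in MHCC97L, a ratio of 0.874 (0.838 to 0.912). Without TMM, CYP reads were 0.0161% of all reads in MHCC97H and 0.0168% in MHCC97L. The ratios of family and subfamily sums thus shift with the scaling, which their intervals do not cover. Subfamily sums differed in direction, with ratios of 1.52 (1.28 to 1.81) for CYP1, 0.806 (0.753 to 0.862) for CYP2, 0.676 (0.615 to 0.744) for CYP3 and 0.397 (0.285 to 0.547) for CYP26. The CYP1 sum follows CYP1B1, which gave 90.0% of its reads in MHCC97H and 62.2% in MHCC97L.

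Epoxide hydrolase 1 (EPHX1), the microsomal enzyme that opens epoxides made by CYPs, was the most abundant gene of phase I. It had 4609 reads in MHCC97H and 8593 in MHCC97L, or 152.0 against 360.3 CPM, a 2.37-fold lower level (2.29 to 2.46). It gave 48.3% of phase I reads in MHCC97H and 66.2% in MHCC97L. The log2 ratio of -1.25 was -1.11 with total counts and -1.44 with upper-quartile factors, but -0.89, under the threshold, with the trend removed. EPHX2, the soluble enzyme for fatty acid epoxides, had 90 and 86 reads (log2 ratio -0.28, interval -0.72 to 0.16), and EPHX4 had 185 and 105 (0.47, interval 0.12 to 0.83). EPHX3 had 9 and 0 reads and stayed below the filter. The EPHX sum was 161.4 against 368.3 CPM, a ratio of 0.438 (0.423 to 0.454). Phase I as a whole stood at 314.9 against 544.0 CPM, a ratio of 0.579 (0.564 to 0.594), which was 0.887 without EPHX1.

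The promoter of EPHX1 is shown as that of the most abundant member called, and GSTP1's as that of the most abundant member. The runs are the 250 bases before 1 of 3 EPHX1 starts in RefSeq, chosen because it holds TGACNNNGC (chr1:225825104-225825353, plus strand), and before the GSTP1 start (chr11:67583562-67583811, plus strand), both on GRCh38.p14 with capitals as above.
EPHX1: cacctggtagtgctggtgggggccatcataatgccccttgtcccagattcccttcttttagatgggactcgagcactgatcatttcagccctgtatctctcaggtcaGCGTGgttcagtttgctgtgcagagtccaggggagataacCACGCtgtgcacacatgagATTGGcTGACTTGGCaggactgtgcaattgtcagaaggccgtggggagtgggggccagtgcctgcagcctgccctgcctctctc
GSTP1: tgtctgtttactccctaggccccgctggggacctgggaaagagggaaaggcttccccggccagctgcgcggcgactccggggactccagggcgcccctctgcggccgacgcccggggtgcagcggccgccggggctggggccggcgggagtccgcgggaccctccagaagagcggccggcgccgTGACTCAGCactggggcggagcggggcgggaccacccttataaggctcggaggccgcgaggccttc
The EPHX1 run holds TGACTTGGC 78 bases before the start, beside a reverse CCAAT box at 84 bases, and GCGTG matches at 143 and, reversed, at 103 bases. The GSTP1 run holds TGACTCAGC at 66 bases.

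Across the members, 83 of 109 genes had an entry in the RefSeq promoter table, with 102 promoters. TGACNNNGC was found in 14.7% of these and in 10.9% of all 35116 promoters, and GCGTG in 23.5% and 32.2%. GTTAAT was found in 12.7% and 6.23%, CCAAT in 41.2% and 32.0%, and TATAAA in 29.4% and 10.7%. CAAAGTCCA was found in 6 member promoters (5.88%), of CYP2C8, CYP2R1, CYP2B6, CYP2A6, CYP2A7 and CYP2A13, and in 0.325% of all. The CYP2A genes are near-identical copies, so their promoters are not independent, and motifs were counted on both strands with overlaps allowed. In the 54 promoters of members that reached 1 CPM the shares were 14.8% for the antioxidant core, 31.5% for the aryl hydrocarbon receptor core, 16.7% for the HNF1 motif, 5.56% for the HNF4 site, 46.3% for the CCAAT box and 20.4% for the TATA box. A match is a description of the letters and not evidence of binding.

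The UGT1A locus makes its enzymes by joining alternative opening exons to common later exons, and UGT1A1 conjugates bilirubin. All 9 UGT1A rows had log2 ratios between -0.00 and 0.01, and their counts were nearly the same number. The lowest row held 5573 reads in MHCC97H and 4366 in MHCC97L. UGT1A5 and UGT1A8 held exactly these counts, and UGT1A4 exceeded them by 0 and 1 reads. UGT1A1 exceeded them by 8 and 3 reads, UGT1A3 by 10 and 8, UGT1A7 by 10 and 9, and UGT1A9 by 20 and 20. UGT1A6, with 1744 and 1345 reads more, and UGT1A10, with 1672 and 1347 more, stood above the rest. The rows therefore hold a shared set of reads and are not 9 measurements, and the level of a single UGT1A enzyme cannot be read from them. Their sum was 7.33 times the largest row in MHCC97H, UGT1A6, and 7.36 times the largest in MHCC97L, UGT1A10 with 5713 reads. UGT1A6, the largest by mean CPM of both libraries, had 7317 and 5711 reads, or 241.3 against 239.5 CPM (log2 ratio 0.01, interval -0.04 to 0.06).

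**Figure D3:**
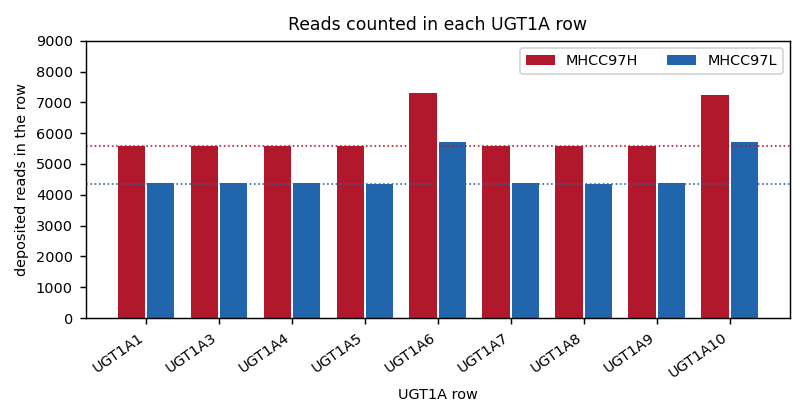
Deposited reads in each of the 9 UGT1A rows (red, MHCC97H; blue, MHCC97L), with dotted lines at the lowest row of each library, 5573 and 4366 reads. Only UGT1A6 and UGT1A10 rise visibly above these lines, in both libraries.

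UGT2 genes, which conjugate steroids and bile acids in hepatocytes, were near the detection limit. The 10 genes summed to 61 reads in MHCC97H and 35 in MHCC97L, a ratio of 1.37 (0.890 to 2.14), and none reached 1 CPM. UGT2A3 had 16 and 18 reads, UGT2B4 21 and 7, UGT2B7 19 and 7, UGT2B11 3 and 3, UGT2B10 1 and 0, and UGT2B15 1 and 0. UGT2A1, UGT2A2, UGT2B17 and UGT2B28 had 0 in both. UGT2B genes are close paralogs, so single values are uncertain.

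Glutathione S-transferases were the most abundant enzymes. GSTP1, the pi-class enzyme, which in normal liver is typical of bile duct cells rather than hepatocytes, had 24335 reads in MHCC97H and 26961 in MHCC97L, or 803 against 1130 CPM. It was the highest member per kilobase of exon, at 420 against 592 CPM per kb, and gave 61.3% and 61.7% of GST reads. Its log2 ratio of -0.49 (interval -0.52 to -0.47) was under the threshold and became 0.05 with the trend removed. GSTM4, a mu-class enzyme, had 83 and 138 reads, or 2.74 against 5.79 CPM, and was 2.11-fold lower in MHCC97H (1.60 to 2.81). This sole phase II call was lost with total counts and with the trend removed (-0.93), and 6.53% of its exon bases overlap the paralog GSTM2. GSTM3 had 8 and 15 reads, GSTM2 1 and 3, GSTM1 1 and 1, and GSTM5 1 and 1.

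The other GST classes stayed within 2-fold. GSTK1, the kappa enzyme of mitochondria and peroxisomes, stood at 204 against 356 CPM (log2 ratio -0.80, interval -0.85 to -0.76), and at -0.88 with the trend removed. GSTO1, an omega enzyme that reduces dehydroascorbate, stood at 173 against 177 CPM (-0.04, interval -0.09 to 0.02), and GSTO2 at 38.3 against 43.4 CPM (-0.18, interval -0.30 to -0.06). GSTT1, of the theta class, stood at 54.6 against 73.9 CPM (-0.44, interval -0.53 to -0.34), and GSTZ1, which also acts in tyrosine breakdown, at 27.2 against 36.1 CPM (-0.41, interval -0.55 to -0.27). Alpha-class genes, abundant in normal hepatocytes, were low. GSTA4, which conjugates lipid aldehydes, had 113 and 92 reads (-0.05), GSTA1 65 and 57 (-0.16) and its near-identical copy GSTA2 23 and 18, while GSTA3 and GSTA5 had 0 in both. All 9 GST genes that reached 1 CPM had a negative log2 ratio with TMM, whereas with total counts GSTO1 (0.10) and GSTA4 (0.08) turned positive, and with the trend removed GSTP1 (0.05) did. The GST sum was 1310 against 1831 CPM, a ratio of 0.715 (0.706 to 0.725).

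Microsomal glutathione S-transferases differed among themselves. MGST3 had 1714 and 2103 reads, or 56.5 against 88.2 CPM (log2 ratio -0.64, interval -0.73 to -0.55), and stood at -0.99, just under the threshold, with the trend removed. MGST1, a detoxifying enzyme of the endoplasmic reticulum and mitochondria, had 4088 and 2903 reads (0.15, interval 0.08 to 0.22), and MGST2, which can make leukotriene C, had 767 and 534 (0.18, interval 0.01 to 0.34). The MGST1 ratio was -0.30 with the trend removed. Sulfotransferases were led by SULT2B1, which sulfonates cholesterol and related sterols, with 1405 and 1711 reads, or 46.3 against 71.7 CPM (-0.63, interval -0.73 to -0.53, and -0.21 with the trend removed). SULT1A1, which acts on phenols, had 370 and 345 reads (-0.25, interval -0.46 to -0.03). Its close paralog SULT1A2 had 28 and 15, SULT1A3 0 and 3, and SULT1A4 5 and 2. Read-through genes on the same strand overlap 70.7% of the SULT1A3 and 85.25% of the SULT1A4 exon bases, so these low counts are uncertain. SULT1C4 had 2 and 0, SULT1C2 1 and 0, SULT4A1 1 and 0, and the oestrogen sulfotransferase SULT1E1 0 and 1. SULT2A1, the hepatocyte and adrenal enzyme for steroid sulfation, had 0 in both, as did SULT1B1, SULT1C3 and SULT6B1. The SULT sum was 59.8 against 87.1 CPM, a ratio of 0.686 (0.644 to 0.731).

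**Figure D4:**
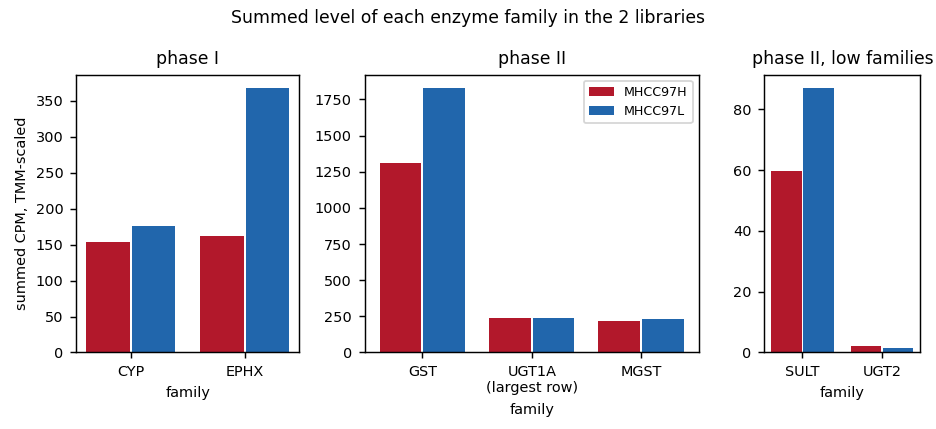
Summed TMM-scaled CPM of each enzyme family in the MHCC97H (red) and MHCC97L (blue) libraries, on 3 axes that start at 0, with UGT1A shown by UGT1A6, its largest row by mean CPM. EPHX stands at 161.4 against 368.3 CPM and GST at 1310 against 1831 CPM, while CYP, UGT1A and MGST lie closer together.

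Phase II summed to 3356 against 3914 CPM as deposited, a ratio of 0.858 (0.850 to 0.865). With UGT1A counted once by the UGT1A6 row, the sum was 1829 against 2391 CPM and the ratio 0.765 (0.756 to 0.774). The median log2 ratio of members that reached 1 CPM was -0.28 for phase I and -0.04 for phase II, or -0.25 with UGT1A counted once, beside 0.06 over all genes. With total counts the medians turned to 0.03 and 0.10, where the median of all genes was 0.20. CYP26A1 was then below the filter, so the phase I median was taken without it and did not move by the scaling alone. A filter at 5 CPM turned the median of phase I to 0.16. The phase I median includes the 5 members that entered through MHCC97L alone.

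The enzymes' electron donors, cofactor suppliers and regulators were examined as lists of other genes of the pathway. Over all genes, 7.74% were higher and 4.37% lower by the rule, so few calls would be met in lists of this size. None of 11 redox partners of phase I met the rule, with a median of 0.00. The CYP reductase POR stood at 166 against 242 CPM (log2 ratio -0.54) and CYB5R3, a cytochrome b5 reductase, at 234 against 308 CPM (-0.39). Other oxidases, reductases and hydrolases had 13 of 28 genes at 1 CPM, with 0 higher, 0 lower and a median of -0.01. With the trend removed the median was -0.18, and the paraoxonase gene PON3, named after its value was seen, was lower (-1.24). Their most abundant genes were the quinone reductase NQO1, at 461 against 705 CPM (-0.61), and the monoamine oxidase MAOA, at 130 against 103 CPM (0.33). The steroid-converting dehydrogenases and reductases had 15 of 24 genes at 1 CPM, with none called and a median of -0.06. Among them HSD17B10 stood at 162 against 241 CPM and HSD17B2, which inactivates oestradiol, at 113 against 149 CPM. HSD17B14 had 1 and 18 reads and STAR, which brings cholesterol to CYP11A1, 2 and 0, both below the filter and named after their values were seen.

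The remaining phase II transferases and cofactor genes each gave 1 higher gene, where 7.74% of all genes were higher. No gene of either list was called with the trend removed. Of 18 transferases 7 reached 1 CPM, and their median was 0.57 and, once the trend was removed, 0.08. The higher one was GSTCD, a gene with a glutathione S-transferase-like domain, with 354 and 107 reads (log2 ratio 1.38, interval 1.06 to 1.71, and 0.84 with the trend removed). UGT8, a galactosyltransferase of brain lipids, stood at 37.0 against 20.9 CPM (0.82). All 17 cofactor genes reached 1 CPM, and their median of 0.26 became -0.00 once the trend was removed. The higher one was the sulfate transporter SLC26A2, with 704 and 190 reads (1.54, interval 1.31 to 1.78, and 0.95 with the trend removed). PAPSS2, which makes the sulfate donor, stood at 296 against 168 CPM (0.81) and AHCY, of the methylation cycle, at 720 against 848 CPM (-0.24).

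Of 25 receptors and partner factors, 20 reached 1 CPM, with a median of -0.08. Of these 1 was higher, where 7.74% of all genes were, and none was called with the trend removed. NFE2L2, which encodes NRF2, the activator of antioxidant response elements, was the single higher gene, with 1737 and 622 reads, or 57.3 against 26.1 CPM (log2 ratio 1.13, interval 1.00 to 1.27, and 0.91 with the trend removed). That ratio lies as close to the threshold as the 1.14 of CYP1B1, whose call was lost with upper-quartile factors. A gene on the same strand overlaps 17.6% of the NFE2L2 exon bases. RXRA, the partner of many nuclear receptors, stood at 251 against 316 CPM (-0.33) and CEBPB at 180 against 261 CPM (-0.54). The following were chosen after their values were seen, for their link to called members, which was not tested here. AHR, the receptor that induces CYP1 genes, had 1125 and 463 reads (0.93, interval 0.78 to 1.09) and its partner ARNT 1597 and 739 (0.76), with AHR at 0.29 once the trend was removed. Another protein-coding gene on the same strand overlaps 29.4% of the AHR exon bases. AHRR, of the same list, had 357 and 417 reads (-0.57, interval -0.78 to -0.36). NR5A1, a regulator of steroid-forming CYPs, had 0 and 10 reads, below the filter. NR5A2, of the same list, had 159 and 120 (0.06, interval -0.29 to 0.41). The drug-sensing receptor genes NR1I2 and NR1I3 had 2 and 0 and 37 and 33 reads.

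**Figure D5:**
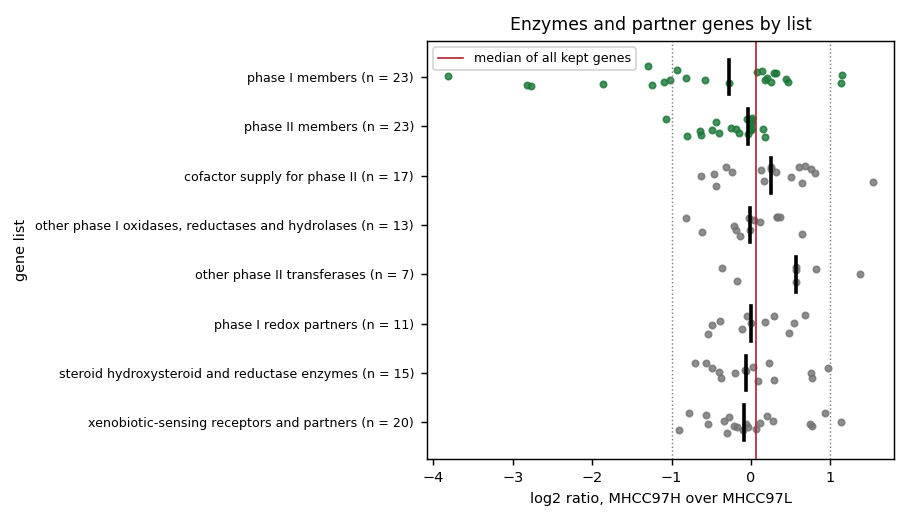
Log2 ratio of MHCC97H over MHCC97L for the phase I and phase II members (green) and for 6 lists of partner genes (grey) that reached 1 CPM, with the median of each list as a black bar and that of all genes as a red line. Dotted lines mark a 2-fold difference; phase I has 8 genes beyond the lower line, 5 of which passed the filter only through MHCC97L, and 2 beyond the upper, where the shares of all genes are 4.37% and 7.74%.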

How the data were processed

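RNA was extracted from cultured cells with Trizol and made into poly(A)-selected libraries with an NEBNext Ultra kit, per the labels' protocols. The authors deposited raw read counts per gene, without normalisation, for the 2 libraries. The tools named in the submitters' processing notes are HTSeq 0.11.2, HISAT2 2.1.0 and bcl2fastq, with hg19 as the genome build. Not given in the sources used here are the annotation, the strand setting and the handling of reads that match several genes, so overlapping genes and near-identical paralogs are uncertain.

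Effective library sizes came from TMM in edgeR 4.0.16 (R 4.3.3) on the whole table (factor 1.05 in MHCC97H, 0.955 in MHCC97L). Ratios were computed for genes that reached 1 CPM in either library. Log2 ratios had a prior count of 0.5, and intervals are exact Clopper-Pearson 95% intervals of the split of a gene's reads. Sums include every member. Members and lists were chosen with earlier results of these data known. Members named with full values were those meeting the size rule, the most abundant of each family or class, the next 12 by level, and their paralogs. Partner genes named were those meeting the rule at 5 CPM or the 2 most abundant of a list; exceptions are stated, and a few genes that these rules or the account of members would name are not reported here.

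Exon lengths, GC content and overlaps came from GENCODE 29 and promoters from RefSeq on GRCh38.p14, builds that differ from hg19, so lengths are approximate. The lowess trend had a span of 0.2 and covered 89.3% of genes. On Poisson counts, simulated with no spread between cultures and no GC trend, the rule called 14 of 13997 unchanged genes. It called 1 of 48 changed 1.5-fold and all changed 0.4-, 2.5- or 4-fold. The intervals assume the same counting error, so this checks the computation and gives no error rate for the real libraries. Alternatives covered scaling (DESeq2 1.42.0 among them), the trend, the filter, the fold threshold, the kind of interval, the prior count and a coefficient of variation of 0.2. TMM on genes of at least 1 CPM and counting UGT1A once were added after the data were seen. Computation used matplotlib 3.10.9, statsmodels 0.14.6, scipy 1.17.1, pandas 2.3.3 and numpy 2.4.6 in Python 3.11.15.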

Additional observations from a re-analysis of the deposited data

How the results depend on the processing

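The 2 higher members became 0 with upper-quartile factors, 4 with no filter, 1 with a filter at 5 CPM and 0 after removal of the GC and length trend. The 9 lower members became 5 with total counts, 2 with a filter at 5 CPM, 5 with the trend removed and 14 at a 1.5-fold threshold. Over all genes, 7.74% were higher and 4.37% lower, which became 11.4% and 3.23% with total counts, 4.35% and 7.22% with upper-quartile factors, 6.40% and 5.58% with no filter and 6.90% and 1.83% with a filter at 5 CPM. DESeq2 factors, the Wilson interval and TMM on genes of at least 1 CPM left all 11 calls in place, and CYP2D6 alone was lost with a prior count of 2 or an assumed coefficient of variation of 0.2. With no filter, CYP27A1, CYP3A4, CYP46A1, CYP4B1 and EPHX3 were added. The phase II median was 0.10 with total counts. The summed phase I ratio was 0.634 with total counts, 0.507 with upper-quartile factors, 0.563 with TMM on genes of at least 1 CPM and 0.887 without its most abundant member. The summed phase II ratio was 0.940, 0.751 and 0.834 with the same factors, 0.848 with DESeq2 factors and 0.765 with UGT1A counted once. It was 0.918 without its most abundant member, GSTP1, a value that still counts the shared UGT1A reads in all 9 rows. Each scaling multiplies every ratio by 1 constant and can change which genes reach the filter, and otherwise the cause was not tested. No paired analysis was possible because each line has 1 library, and for the same reason no library could be left out. At this depth, values under about 30 reads have intervals that span several-fold, and differences of single UGT2 genes and of the SULT genes below the filter lay within them and were not detectable.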
